A study of Mus musculus with 13 samples.

Results

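The 9 genes described here encode subunits of voltage-gated sodium channels. They are 6 alpha subunits (Scn1a, Scn3a, Scn8a, Scn9a, Scn10a and Scn11a) and 3 beta subunits (Scn2b, Scn3b and Scn4b), taken by name from the 41388 genes of the count tables, and all 9 were found. RNA was sequenced from cells of mouse dorsal root ganglia (DRG), the ganglia that hold the cell bodies of sensory neurons, in 13 libraries. The ganglia were taken either at the lumbosacral levels L6 and S1 (L6S1), which serve the pelvic organs, or at the lumbar levels L3, L4 and L5 (L345), which serve mainly the hind limb. Before RNA extraction the cells were sorted by fluorescence.

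The libraries fall into 4 groups. Male L6S1 had 4 libraries (replicates A, D, E and F), male L345 had 3 (A, B and C), female L6S1 had 3 (A, B and C) and female L345 had 3 (A, B and C). All groups shared the strain (C57BL/6), the age of 3 months and the reporter. The genotype label is Tg(Ret-EGFP)SJ, while the series text describes heterozygotes with enhanced green fluorescent protein (EGFP) knocked into the locus of Ret. Ret is the signalling receptor for GDNF and its relatives, which keep many sensory neurons alive, so the cells described are those in which the Ret locus was active, not all sensory neurons, and whether the allele leaves Ret function intact is not stated. No group was treated and no library came from mice without the reporter. Each library was a pool of 12 to 42 ganglia from 2 to 9 mice, and the labels do not say whether pools of the 2 levels share mice. The p-values below measure the spread between these pools. The submitters' processing notes differ between all male and all female libraries, so sex and processing cannot be told apart.

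Voltage-gated sodium channels open when the membrane depolarises and carry the inward current of the action potential. An alpha subunit forms the pore and the gate, while beta subunits, which cross the membrane once, adjust gating and surface expression. Small-diameter sensory neurons, among them nociceptors, are known for channels that resist tetrodotoxin, a toxin that plugs the outer pore of most other sodium channels. In bulk RNA, fewer cells of a type and less RNA per cell cannot be told apart.

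Alpha subunits differ at the residue of the outer pore in domain I on which tetrodotoxin sensitivity turns, and the coding bases of 5 of them there are shown because the results are ordered by that property. An aromatic residue such as tyrosine is known to give sensitivity, and serine resistance. Each stretch is 36 bases of the coding strand, 5′ to 3′, from GENCODE M21 transcripts on GRCm38, and the capitals mark the codon of that residue. Scn9a has tyrosine at residue 362 (chr2:66548986-66549021, minus strand), Scn3a tyrosine at 384 (chr2:65521798-65521833, minus strand) and Scn8a tyrosine at 371 (chr15:100971620-100971655, plus strand). Scn10a has serine at residue 356 (chr9:119666372-119666407, minus strand) and Scn11a serine at 358 (chr9:119805665-119805700, minus strand). Positions count from the start codon of the transcript used, and each stretch lies in 1 coding exon. Between these genes, 26 to 32 of the 36 bases were equal.
Scn9a: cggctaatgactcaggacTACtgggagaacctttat
Scn3a: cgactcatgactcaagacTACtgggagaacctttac
Scn8a: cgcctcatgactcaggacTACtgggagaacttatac
Scn10a: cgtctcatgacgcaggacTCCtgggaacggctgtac
Scn11a: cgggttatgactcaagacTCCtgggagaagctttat

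Total counts per library ran from 13030096 to 27011995, and 15406 genes passed the filter on low counts and were tested. The sorting gene Ret had 87.2 to 221 CPM (counts scaled to library size) in the 4 male L6S1 libraries, against 195 to 207 CPM in male L345. Ret ran from 181 to 182 CPM in female L6S1 and from 200 to 207 CPM in female L345. Neuron markers were high in every library, with the 6 genes of that list summing to 8319 to 15253 CPM. Male L6S1 D and E stand apart from the other 11 libraries in several marker sums and in the level of long against short genes, as given below. The comparisons of the 9 genes that hold them are also given without them.

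The nociceptor alpha subunits and Scn2b led the 9 genes. CPM is the count per 1e6 counts of the library, corrected with a between-library factor (TMM), and levels of different genes are compared only as CPM per kilobase of exon. Over the 13 libraries the mean level per length was 94.8 for Scn11a, 77.3 for Scn10a, 51.3 for Scn2b, 43.8 for Scn9a and 30.7 for Scn3b. Then came 5.97 for Scn4b, 2.93 for Scn1a, 1.54 for Scn8a and 1.16 for Scn3a, the lowest of the 9. The order was clear at some steps and not at others. Scn10a was above Scn2b, Scn3b above Scn4b, Scn4b above Scn1a and Scn1a above Scn8a in 13 of 13 libraries. Scn11a was above Scn10a in 11, with male L6S1 E and F the exceptions, and Scn8a above Scn3a in 12, with female L6S1 A the exception. Scn9a was above Scn3b in 11, and Scn2b above Scn9a in only 8, so that Scn2b and Scn9a are not separated beyond the spread between libraries.

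**Figure D1:**
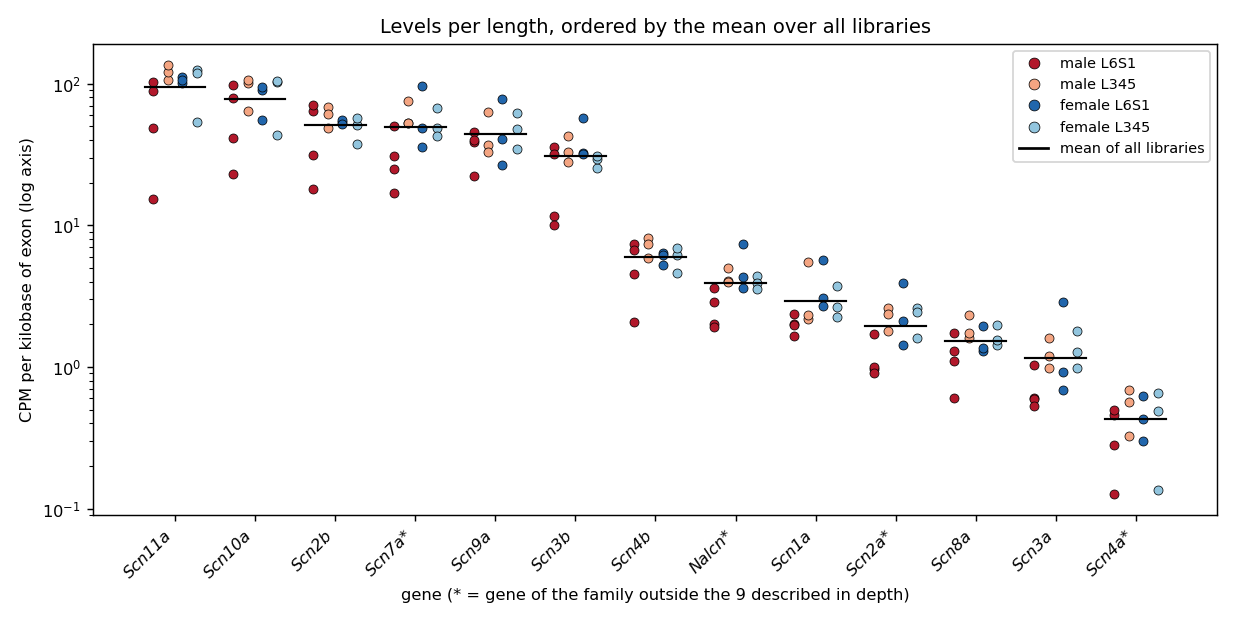
Level per length (CPM per kilobase of exon, log axis) of the 9 genes and of 4 other genes of the family (asterisks) in each library; points are libraries coloured by group and the line is the mean of all 13. Scn11a, Scn10a, Scn2b, Scn9a and Scn3b have means of 30.7 or more, and Scn4b, Scn1a, Scn8a and Scn3a of 5.97 or less.

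Scn9a encodes Nav1.7, a tetrodotoxin-sensitive channel that amplifies small depolarisations in nociceptors and whose loss in humans abolishes pain. The gene (ENSMUSG00000075316) lies on chromosome 2, from 66480080 to 66634962 on the minus strand, and 180 of its exon bases are shared with the antisense gene Gm13629, which had 70 counts in all libraries together. Scn9a had 496, 587, 509 and 286 CPM in male L6S1 A, D, E and F, against 808, 471 and 422 CPM in male L345 A, B and C. In females it had 1000, 521 and 340 CPM in L6S1 A, B and C, against 788, 607 and 440 CPM in L345 A, B and C. The groups overlapped in either sex, and the A library was the highest of its group in 3 of the 4 groups. The log2 fold change of L6S1 against L345 was -0.27 ± 0.37 (SE) in males and 0.02 ± 0.40 in females.

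Scn1a, Scn3a and Scn8a are the other tetrodotoxin-sensitive members. Scn1a (ENSMUSG00000064329, chromosome 2, 66270778 to 66440840, minus strand) encodes Nav1.1, found mostly in larger, myelinated sensory neurons. It had 26.3, 22.3, 22.0 and 18.4 CPM in male L6S1 A, D, E and F, against 60.5, 24.2 and 25.8 CPM in male L345 A, B and C. In female L6S1 A, B and C it had 63.0, 33.7 and 29.8 CPM, against 41.5, 29.4 and 24.8 CPM in female L345. The 2 levels overlapped in either sex. Male L6S1 A was above male L345 B and C, while D, E and F were below all male L345 libraries. The A libraries of the other groups stood well above their B and C libraries.

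Scn3a (ENSMUSG00000057182, chromosome 2, 65457118 to 65567627, minus strand) encodes Nav1.3, prominent in embryonic neurons and, in rats, in sensory neurons after nerve injury. It had 12.9, 7.54, 7.37 and 6.56 CPM in male L6S1 A, D, E and F, against 19.9, 14.9 and 12.2 CPM in male L345 A, B and C. In female L6S1 A, B and C it had 36.0, 11.5 and 8.54 CPM, against 22.2, 15.8 and 12.2 CPM in female L345. The 2 levels overlapped in either sex, and the A library was the highest of every group.

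Scn8a (ENSMUSG00000023033, chromosome 15, 100869858 to 101045938, plus strand) encodes Nav1.6, the main channel of the nodes of Ranvier in adult myelinated axons. It had 21.1, 13.4, 7.31 and 15.9 CPM in male L6S1 A, D, E and F, against 28.3, 19.4 and 21.1 CPM in male L345 A, B and C. In female L6S1 A, B and C it had 23.6, 15.8 and 16.4 CPM, against 24.0, 17.4 and 18.7 CPM in female L345. The groups of each sex overlapped, and male L6S1 E was the lowest of all libraries. Together Scn1a, Scn3a and Scn8a made up 1.64% to 4.44% of the summed level per length of 8 alpha subunits (the 6 described in depth with Scn2a and Scn4a).

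Scn10a and Scn11a are the tetrodotoxin-resistant members and neighbours on the minus strand of chromosome 9, with 34436 bases between them. Scn10a (ENSMUSG00000034533, 119608456 to 119719322) encodes Nav1.8, which carries most of the upstroke of the action potential in nociceptors. It had 508, 267, 148 and 625 CPM in male L6S1 A, D, E and F, against 411, 645 and 680 CPM in male L345 A, B and C. In female L6S1 A, B and C it had 356, 581 and 609 CPM, against 281, 663 and 674 CPM in female L345. Male L6S1 D and E and the A libraries of the other 3 groups were the 5 lowest of the 13. The log2 fold change of L6S1 against L345 was -0.58 ± 0.43 in males and -0.07 ± 0.46 in females.

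Scn11a (ENSMUSG00000034115, 119753759 to 119825456) encodes Nav1.9, a slow, persistent channel that acts near the resting potential of nociceptors. It had 600, 284, 89.7 and 517 CPM in male L6S1 A, D, E and F, against 617, 704 and 785 CPM in male L345 A, B and C. In female L6S1 A, B and C it had 594, 649 and 618 CPM, against 311, 732 and 695 CPM in female L345. Every male L6S1 library was below every male L345 library, the only such case among the 9, an order that 9.49% of all tested genes had. With 8.75 times between its highest and its lowest library, Scn11a was the most variable member over the 13 libraries. Without male L6S1 D and E this ratio was 2.52, below those of Scn3a (5.49), Scn9a (3.50) and Scn1a (3.42).

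Scn10a and Scn11a together made up a median of 80.4% of the summed level per length of these 8 alpha subunits. This share was 79.8%, 64.0%, 46.4% and 87.2% in male L6S1 A, D, E and F, against 69.2%, 83.1% and 85.6% in male L345 A, B and C. It was 62.8%, 80.6% and 85.7% in female L6S1 A, B and C, against 57.4%, 80.4% and 84.4% in female L345. Thus 5 libraries fell below 70%, namely male L6S1 D and E and the A libraries of the other 3 groups, and the 2 levels did not separate. Scn9a took most of the rest, from 10.5% in male L6S1 F to 48.2% in male L6S1 E.

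**Figure D2:**
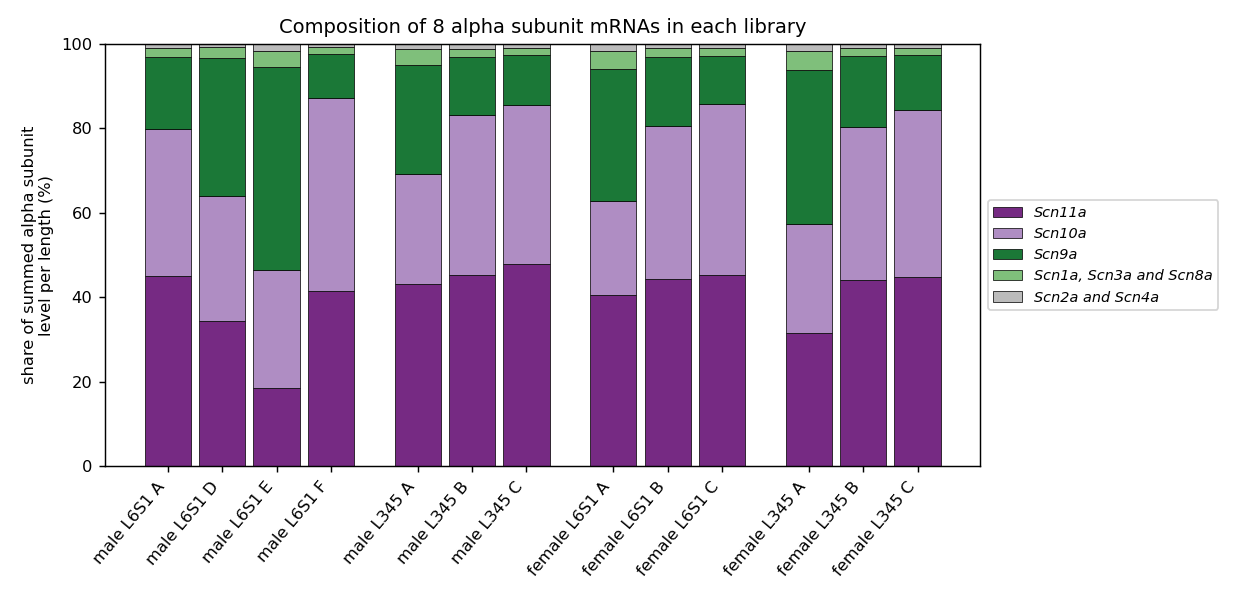
Share (%) of each alpha subunit in the summed level per length of 8 alpha subunit genes, with 1 stacked bar per library and bars grouped by level and sex. Scn10a plus Scn11a fill 46.4% in male L6S1 E and 87.2% in male L6S1 F, and the share of Scn9a is large where theirs is small.

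Among beta subunits, Scn2b (ENSMUSG00000070304, chromosome 9, 45117782 to 45130070, plus strand) encodes a subunit that binds the alpha subunit through a disulfide bond. It had 291, 143, 82.7 and 322 CPM in male L6S1 A, D, E and F, against 221, 312 and 277 CPM in male L345 A, B and C. In female L6S1 A, B and C it had 244, 253 and 238 CPM, against 170, 232 and 259 CPM in female L345. The groups overlapped, with male L6S1 F the highest and male L6S1 E the lowest of all libraries.

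Scn4b (ENSMUSG00000046480, chromosome 9, 45138395 to 45154152, plus strand), 8324 bases from Scn2b, also encodes a disulfide-linked subunit and is known for its part in resurgent sodium current. It had 36.6, 22.3, 10.3 and 32.9 CPM in male L6S1 A, D, E and F, against 40.4, 36.7 and 29.1 CPM in male L345 A, B and C. In female L6S1 A, B and C it had 31.3, 26.1 and 30.4 CPM, against 22.9, 30.4 and 34.1 CPM in female L345. Male L6S1 E was far below the other libraries, and D was next lowest, close to female L345 A.

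Scn3b (ENSMUSG00000049281, chromosome 9, 40269217 to 40291618, plus strand) encodes a subunit that binds without a disulfide bond. It had 199, 64.1, 55.4 and 177 CPM in male L6S1 A, D, E and F, against 236, 182 and 155 CPM in male L345 A, B and C. In female L6S1 A, B and C it had 319, 178 and 175 CPM, against 141, 162 and 171 CPM in female L345. Every female L6S1 library was above every female L345 library, by little for B and C, an order that 4.89% of all tested genes had. Male L6S1 D and E were far below all others.

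**Figure D3:**
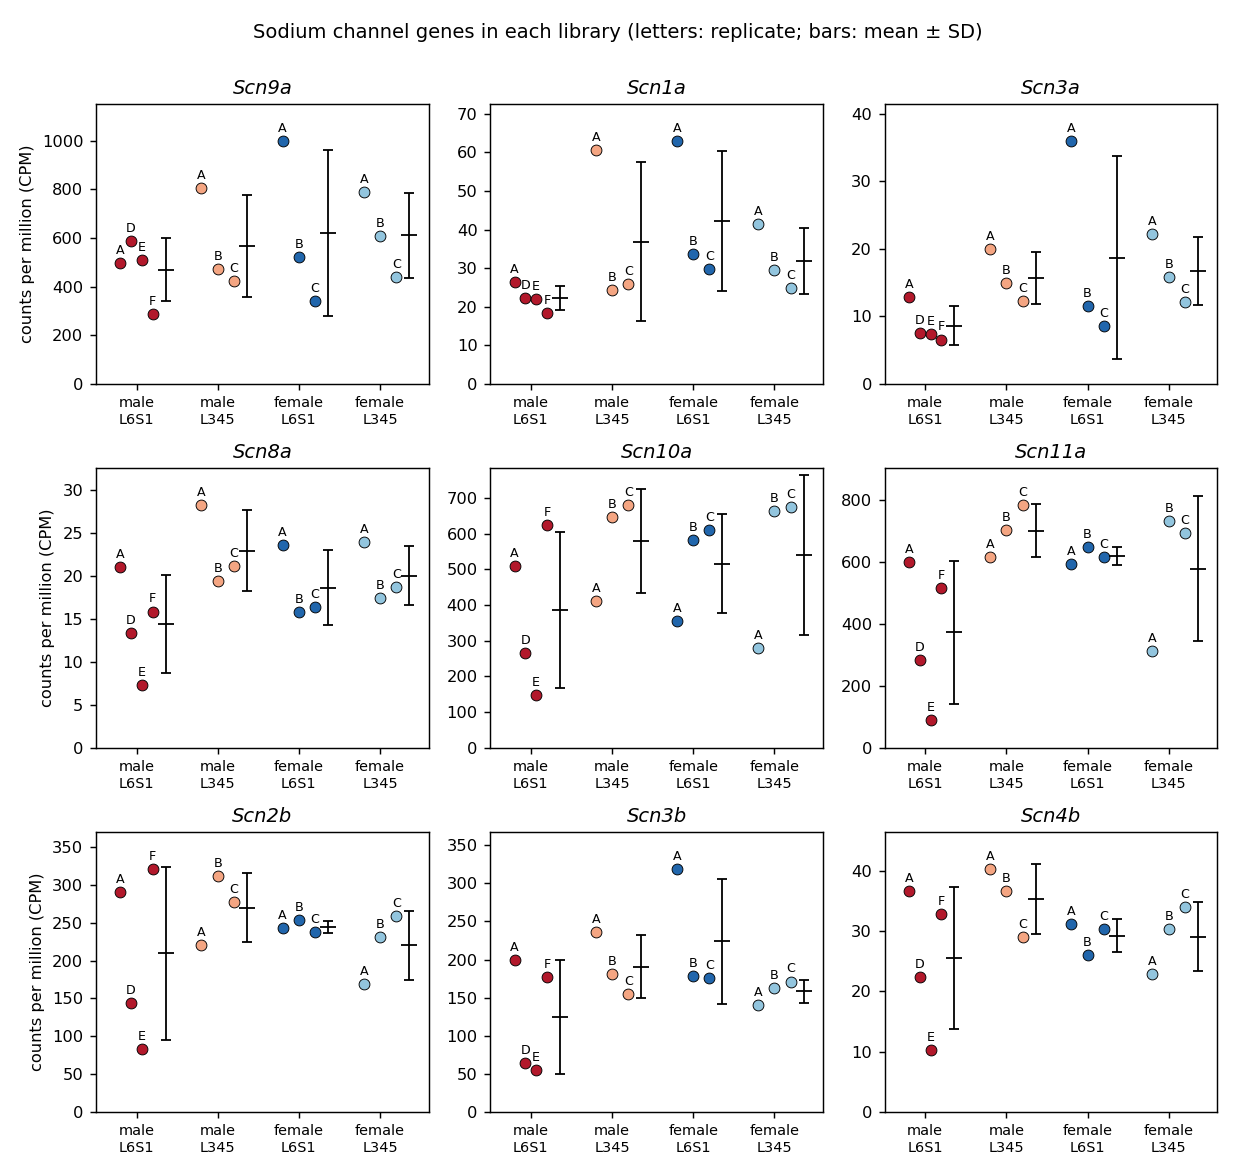
CPM of the 9 genes in each library, with 1 panel per gene, letters for replicates, and mean ± SD beside each group. In 6 panels (Scn8a, Scn10a, Scn11a, Scn2b, Scn3b and Scn4b) male L6S1 D and E lie below every other library, and in the panels of Scn1a, Scn3a and Scn8a the A library is the highest of every group.

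The study's main contrast sets L6S1 against L345. None of the 9 genes was called at an adjusted p under 0.05 by the quasi-likelihood F-test of edgeR, adjusted by Benjamini-Hochberg over 15406 genes, either averaged over the sexes, in females or in males. Over all tested genes 0.448%, 0.0195% and 0.221% were called in these comparisons, so a count of 0 among 9 is near what all genes had. At an unadjusted p under 0.05, the members numbered 0, 0 and 1 (Scn8a in males), while 8.39%, 2.25% and 25.3% of all tested genes passed. DESeq2 and limma voom called 0 of the 9 as well.

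In males all 9 log2 fold changes were negative, with a median of -0.62, against 0.04 over all tested genes. With all libraries Scn11a had the largest, -0.91 ± 0.45 (SE), followed by Scn3a (-0.87 ± 0.43), Scn1a (-0.73 ± 0.35), Scn8a (-0.67 ± 0.31) and Scn3b (-0.62 ± 0.40). Their adjusted p-values in edgeR ran from 0.197 for Scn8a to 0.327 for Scn3b. Without male L6S1 D and E, 8 of 9 were negative with a median of -0.32. The change of Scn11a was then -0.34 ± 0.30 and that of Scn8a -0.32 ± 0.26, and those of Scn10a, Scn3b and Scn4b were -0.04, -0.02 and -0.03. Those of Scn1a and Scn3a became the largest, at -0.73 ± 0.44 and -0.69 ± 0.54, with adjusted p-values of 0.623 and 0.648, and Scn9a moved to -0.54 ± 0.44, against -0.27 with all libraries. The change of Scn1a also turned on male L345 A, and without that library it was -0.17, adjusted p 0.804, and that of Scn9a 0.07. Without male L6S1 A, 3133 genes were called in males in place of 34, and still 0 of the 9.

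In females 7 of 9 log2 fold changes were positive, with a median of 0.10, against 0.00 over all tested genes. The largest were 0.51 ± 0.43 for Scn3b and 0.40 ± 0.38 for Scn1a, and the others lay between -0.11 and 0.16. All had an adjusted p of 1 in edgeR. With the replicate letter as a block, 49 genes were called in females in place of 3, and still 0 of the 9. In that edgeR fit 1 of the 9 had an unadjusted p under 0.05, and the share of all genes is not given here. Without female L6S1 A, Scn3a moved to -0.74, Scn9a to -0.50 and Scn1a to -0.0046, none of them called.

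Averaged over the sexes all 9 were negative, with a median of -0.23, against 0.02 over all tested genes. Scn11a (-0.41 ± 0.33) and Scn8a (-0.39 ± 0.23) had the largest changes and Scn3b (-0.06 ± 0.30) the smallest, with adjusted p-values in edgeR from 0.629 to 0.950. Without male L6S1 D and E, 7 were negative and 2 positive (Scn2b and Scn3b), with a median of -0.12. With the replicate letter within each sex as a block, 5 were negative and 4 positive, among them Scn11a at 0.13, adjusted p 0.854 in edgeR, and none was called. That fit rests on the female pairs A, B and C and the male pair A. A letter without a partner at the other level adds nothing to the change. Male L6S1 D, E and F and male L345 B and C thus drop out, and the sexes do not weigh the same. The difference of the level effect between the sexes was negative for all 9, males minus females, and largest for Scn1a at -1.13 ± 0.51, unadjusted p 0.0428 and adjusted p 0.409 in edgeR. In that comparison 0% of tested genes were called by edgeR, DESeq2 or limma voom, and 1805 genes, Scn1a the only member among them, had an unadjusted p under 0.05. Without male L6S1 D and E that difference was negative for 7 and positive for 2, with a median of -0.43, and was -1.13 ± 0.58 for Scn1a, unadjusted p 0.0754 and adjusted p 0.841. SEs of 0.23 to 0.49 on the level changes mean that moderate differences between the levels were not detectable with these pools, not that they are absent.

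**Figure D4:**
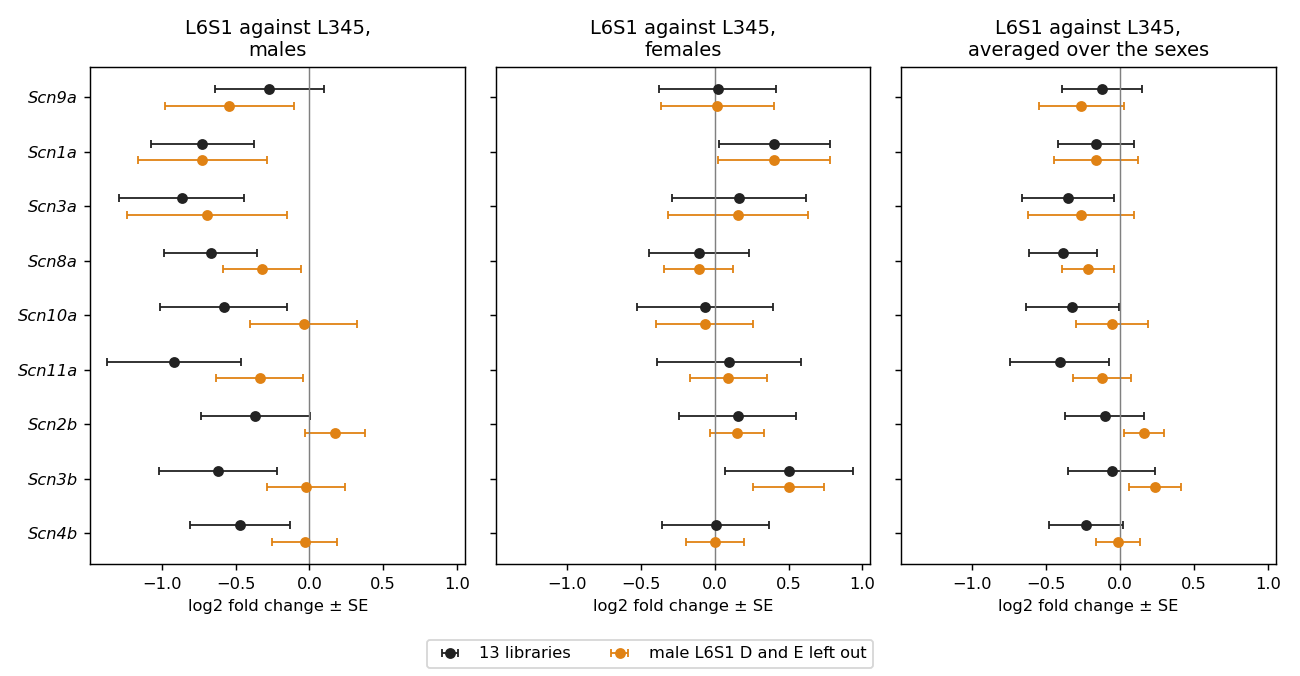
Log2 fold change ± SE of L6S1 against L345 for each of the 9 genes in males, in females and averaged over the sexes, with all 13 libraries (black) and without male L6S1 D and E (orange). In males all 9 black points are negative, with a median of -0.62, and the orange points have a median of -0.32, while in females the points lie around 0.

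Taken library by library, the low values of male L6S1 differed by gene. D and E held the lowest values of Scn8a, Scn10a, Scn11a and the 3 beta subunits, and F those of Scn1a, Scn3a and Scn9a. Against the male L345 range, D was below for 8 members and within it for 1, and E likewise. In both, the member within was Scn9a, at 1.03 times the male L345 mean in D and 0.898 times in E. The median log2 difference of the members from the male L345 mean was -0.90 in D and -1.69 in E, and the lowest was -2.96 for Scn11a in E. Of all tested genes, 38.9% lay below the male L345 range in D and 40.9% in E, and 36.7% and 41.6% lay above it.

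Male L6S1 A was within the male L345 range for 8 members and below it for Scn11a, with a median log2 difference of -0.13. Of all tested genes 22.6% lay below that range in A. Male L6S1 F was below the range for 5 members (Scn1a, Scn3a, Scn8a, Scn9a and Scn11a), within it for 3 and above it for Scn2b, where 35.8% of all tested genes lay below and 38% above. These shares of all genes were close to those in D, so they do not set D apart from F. Scn1a, Scn3a, Scn8a and Scn11a were thus below the range in D, E and F alike. The share of all tested genes below it in D, E and F together was not computed, so this overlap has no background to be read against. F differed from D and E in Scn9a, at 0.504 times the male L345 mean, and in Scn10a and Scn2b, at 1.08 and 1.19 times that mean, where D had 0.461 and 0.531 times and E 0.256 and 0.306 times.

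**Figure D5:**
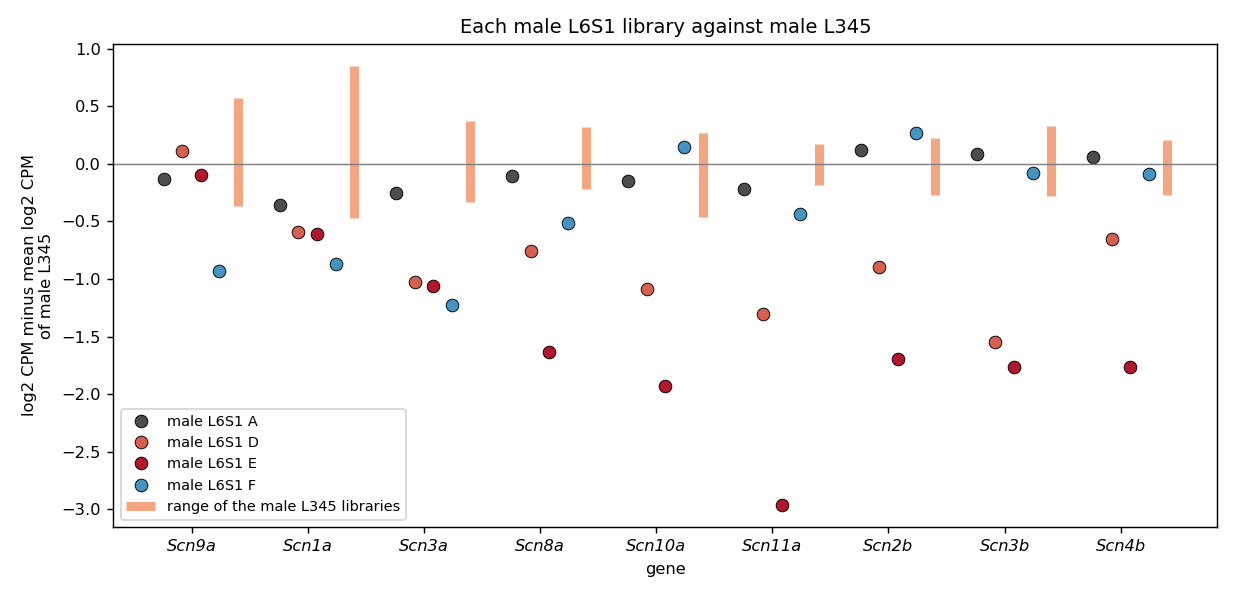
Log2 CPM of each male L6S1 library minus the mean log2 CPM of male L345 for the 9 genes, with orange bars for the range of the 3 male L345 libraries around their mean. E reaches -2.96 for Scn11a and D and E stay within the bar only for Scn9a, while F lies lowest for Scn9a, Scn1a and Scn3a.

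Other measures moved with these libraries, and their part in the results was not tested. Ret was 154 and 87.2 CPM in male L6S1 D and E, and the ratio of Scn11a to Ret was 1.84 and 1.03, against 1.56 to 3.89 in the other 11 libraries. Neuron markers summed to 15253 CPM in D and 12387 CPM in E, against 8319 to 14125 CPM in the other 11, so that only D was above that range. The 8 markers of nonpeptidergic nociceptors summed to 1135 CPM in D and 591 CPM in E, against 1787 to 2721 CPM in the other 11. The 8 markers of peptidergic nociceptors summed to 25249 and 32581 CPM, against 8387 to 14621 CPM, led by Calca and Tac1, which encode the neuropeptides CGRP and substance P. Glial markers summed to 4471 and 9603 CPM, against 3177 to 4667 CPM, so that only E was outside that range, with 4985 CPM of Apoe. Immune markers summed to 14.2 and 21.8 CPM, against 3.55 to 9.69 CPM, with the defining leukocyte gene Ptprc at 0.236 CPM in D and listed at 0 in E. Fibroblast markers summed to 271 CPM in D and 586 CPM in E, against 78.2 to 438 CPM, and muscle markers to 12.2 and 10.6 CPM, against 4.69 to 8.24 CPM. Dcn held 257 and 570 CPM of the fibroblast sums. Acta1 held 10.9 and 7.37 CPM of the muscle sums, while Scn4a of that list had 0.895 and 1.99 CPM, against 0.955 to 4.87 CPM. Ribosomal protein genes took 1.26% and 1.02% of counts in D and E, against 0.412% to 0.600%. The summed markers of C low-threshold mechanoreceptors (1358 and 1372 CPM, against 1216 to 2116 CPM), A fibre neurons (629 and 689 CPM, against 479 to 1059 CPM), endothelial and mural cells (222 and 162 CPM, against 138 to 486 CPM) and red blood cells (7.63 and 8.25 CPM, against 0.466 to 10.2 CPM) were within the range of the others. Single genes of these lists were not all within it. Rgs5 held 198 and 133 CPM of the endothelial and mural sums, and Rgs5, Pecam1 and Kdr were within the range. Flt1 was above it in D and E (8.34 and 8.60 CPM, against 2.14 to 5.62 CPM). Cldn5 was above it only in E (10.4 CPM, against 0.424 to 4.35 CPM), and Cdh5 only in D (4.10 CPM, against 0.935 to 3.04 CPM). Of the C low-threshold mechanoreceptor markers, Th, Slc17a8 and Tafa4 were within the range in D and E. Piezo2 (120 and 76.5 CPM, against 139 to 314 CPM), Zfp521 (33.4 and 23.9 CPM, against 44.2 to 113 CPM) and Gfra2 (132 and 64.0 CPM, against 207 to 342 CPM) were below it.

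Gene length also moved with these libraries. The 1726 tested genes of at least 8000 bases of exon, which include Scn1a, Scn3a, Scn8a and Scn9a, had a median deviation 1.10 lower on the log2 scale than the 3567 genes under 2000 bases in D. In E the gap was 1.67, long genes again lower. In the other 11 libraries long minus short ran from -0.18 in male L6S1 F to 0.74 in female L6S1 A. With offsets that remove this trend, chosen after seeing the data, the change of Scn9a in males was 0.38, adjusted p 0.562 in edgeR, in place of -0.27, and the other 8 stayed negative.

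A second pattern followed the replicate letter. Scn1a, Scn3a and Scn8a were highest in the A library of all 4 groups, and Scn9a in the A library of all groups but male L6S1. Scn10a was lowest in the A library of all groups but male L6S1, and so was Scn11a. The ratio of Scn10a to Scn9a per length was 2.04 in male L6S1 A, 1.01 in male L345 A, 0.709 in female L6S1 A and 0.709 in female L345 A. In the B, C and F libraries it ran from 2.17 to 4.35, and in male L6S1 D and E it was 0.905 and 0.579. The A pools held 9, 5, 7 and 7 mice in these groups, the most of any pool in their group, and what the letter stands for is not given in the labels. Without the 3 A libraries outside male L6S1, 0 of the 9 were called in any comparison by edgeR.

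Males were also set against females at each level, and none of the 9 was called at either. At L345, 7 of 9 log2 fold changes were positive with a median of 0.21. An unadjusted p under 0.05 was found for 0 of the 9 and for 0.863% of all tested genes in edgeR, and 0.0325% of all tested genes were called. At L6S1 all 9 were negative with a median of -0.41, and 0.0844% of all tested genes were called. Scn3a (-1.12 ± 0.42), Scn1a (-0.92 ± 0.35) and Scn3b (-0.85 ± 0.40) had unadjusted p-values under 0.05, as had 26.0% of all tested genes, and their adjusted p-values in edgeR were 0.135, 0.134 and 0.192. Scn1a was lower in every male L6S1 library than in every female L6S1 library, an order that 5.54% of all tested genes had. Without male L6S1 D and E these changes were -0.95, -0.93 and -0.26, with 6 of 9 negative and a median of -0.16.

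Leaving out 1 library changed calls here. Without male L6S1 A, Scn3a (adjusted p 0.0409) and Scn3b (adjusted p 0.0479) passed at L6S1 in edgeR. In that fit 3149 genes were called in place of 13, so calls rose over all genes and not in these members alone. Without female L6S1 A the change of Scn3a was -0.22 and that of Scn3b -0.51, neither called.

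Other genes of the family are given by level. Per length, Scn7a averaged 49.5, Nalcn 3.89, Scn2a 1.96 and Scn4a 0.431 CPM per kilobase over the 13 libraries. Scn7a encodes Nax, a sodium sensor rather than a voltage-gated channel, and its mean lay between those of Scn2b and Scn9a. Nalcn encodes the sodium leak channel, Scn2a a channel of the central nervous system and Scn4a that of skeletal muscle. None of these 4 was called in any comparison by edgeR. Scn2a, Scn7a and Nalcn were lower in every male L6S1 library than in every male L345 library, an order that 9.49% of all tested genes had, with log2 fold changes of -0.99 ± 0.34, -0.96 ± 0.38 and -0.73 ± 0.29 and adjusted p-values from 0.139 to 0.159. These were -0.81, -0.84 and -0.42 without male L6S1 D and E, with adjusted p-values from 0.623 to 0.628.

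Proteins that anchor or modify sodium channels were read from a list of 22 genes, and 0 were called in any comparison by edgeR. In L6S1 against L345 averaged over the sexes, 7 were positive and 15 negative with a median of -0.24, against 0.02 over all tested genes, and 5 had an unadjusted p under 0.05, as had 8.39% of all tested genes. The 3 largest changes were those of Fgf14 (0.91 ± 0.51), Fgf11 (-0.76 ± 0.30) and Ank3 (-0.67 ± 0.26), with adjusted p-values of 0.609, 0.518 and 0.513. They were 1.17, -0.67 and -0.53 without male L6S1 D and E, none of them called. Fgf11 and Fgf14 encode intracellular fibroblast growth factor homologous factors that bind the tail of alpha subunits, and both were at most 3.34 CPM in any library. Ank3 encodes ankyrin-G, which holds sodium channels at the axon initial segment and nodes. It had 227, 175, 60.4 and 139 CPM in male L6S1 A, D, E and F, against 366, 293 and 293 CPM in male L345. In female L6S1 A, B and C it had 305, 248 and 176 CPM, against 321, 310 and 238 CPM in female L345.

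The genes whose log2 CPM ran most like each member over the 13 libraries were found by Pearson's r, as a description in which all points share depth, sorting and the contrast of D and E with the rest. For Scn11a they were Spata13 (r = 0.995, and 0.981 without male L6S1 D and E) and Hspa12a (0.988 and 0.913). For Scn10a they were Tnpo2 (0.987 and 0.962) and Tns1 (0.985 and 0.985), and for Scn9a the zinc finger genes Zfp329 (0.978 and 0.985) and Zfp644 (0.977 and 0.984). Scn1a ran most like Zfp68 (0.957 and 0.961) and Zfp738 (0.942 and 0.941), Scn3a like Psd3 (0.978 and 0.977) and Top2b (0.976 and 0.970), and Scn8a like Strip2 (0.968 and 0.886), among others. Among beta subunits, Scn2b ran most like Disp2 (0.986 and 0.951) and Emc1 (0.983 and 0.911), and Scn3b like Fbxo38 (0.990 and 0.954) and Polr2b (0.988 and 0.957). For Scn4b the genes were Slc12a7 (0.966 and 0.824) and Pan2 (0.961 and 0.779), the pair whose likeness fell most without D and E. No member was among the 2 nearest genes of another.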

How the data were processed

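Total RNA of sorted DRG cells was sequenced on an Illumina HiSeq instrument after amplification of 10 ng with a SMARTer Ultra Low Input kit, per the labels' protocols. The submitters' processing notes name Subread, featureCounts 1.4.5 and the build GRCm38.p2 for all 13 libraries, and in addition STAR 2.0.4b, Salmon and mm10 for the 6 female libraries, with no role or order. How strand and multi-mapping reads were treated is not given in the sources used here, so a gene and its antisense partner cannot be told apart. Counts, as the authors deposited them, are whole numbers of reads per Ensembl gene and are not normalized. The CPM that the authors deposited is the count over the library total, and the RPKM that the authors deposited is that CPM per kilobase of the exon length in the file. Both were recomputed from the counts as a check, with largest relative differences of 5.11e-15 and 5.22e-14.

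For the CPM values in the text, each count was divided by the total multiplied by the TMM factor, which was 0.925 in male L6S1 D, 0.796 in male L6S1 E and 1.01 to 1.05 in the others. Symbols came from GENCODE M21 on GRCm38, which matched 40254 of 41388 identifiers, and the unmatched 1134 held 0.109% of counts. The counts were tested with edgeR 4.0.16 in R 4.3.3 (filterByExpr, TMM, robust quasi-likelihood F-test, 1 mean per group over all 13 libraries, Benjamini-Hochberg over 15406 genes, called at an adjusted p under 0.05). The SE was taken from F, as the size of the log2 fold change divided by its root. Floors of 3 counts were 0.111 to 0.230 CPM, far below all 9 genes, and cover counting error alone. No 2 libraries of a group agreed within counting noise (chi-square over degrees of freedom 5.83 to 471 in 15 pairs).

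Alternatives were DESeq2 1.42.0, limma 3.58.1 (voom), other scalings, no filter, each library left out, male L6S1 D and E left out, and a replicate block, and after seeing the data also length offsets and 3 A libraries left out. Pairing by replicate letter was checked by correlating deviations from group means over genes. Same letters gave 0.520, 0.203 and 0.488 between the female levels and 0.101 for the 1 shared letter of the male levels, all over 0.1, so the letters were taken to pair the levels, although L6S1 B and L345 C of females gave 0.252, above the value for B with B. The main fit has no block, so its p-values, SEs and calls leave this pairing out. Between-level results that use the pairing are those named with the replicate block. Between the sexes at L345 same letters gave 0.505, 0.221 and 0.349, and male B with female C gave 0.268, while male and female pools can share only a letter. Scripts were tested on simulated counts. The 9 genes, the lists and the tests were chosen with earlier results of these data known. Text names the 9 genes, other family genes, of the partner list those called and the 3 largest changes averaged over the sexes, Ret, and for each of the 9 the 2 genes with the highest Pearson r, predicted genes left out. Some genes and 1 sequence that these rules cover are not reported here. Marker genes that lead, define or depart from their list, the C low-threshold mechanoreceptor markers and 1 overlapping antisense gene were named after their values were seen. Plots were drawn with matplotlib 3.10.9 in Python 3.11.15.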

Additional observations from a re-analysis of the deposited data

Results flagged for a closer look

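Scn3a had 12.9 CPM in male L6S1 A, which set this library apart from the other 3 of its group, at 6.56 to 7.54 CPM, by Dixon's test for 4 samples (critical value 0.829). The 9 genes were tested in this way in male L6S1, the only group of 4 or more, and 1 was set apart, where chance gives about 1 in 20. Male L6S1 A was the A library, in which Scn3a was also highest in the other 3 groups.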

How the results depend on the processing

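The set counted here holds all level comparisons and, for males against females at L6S1, only the 2 genes whose calls changed. Outside that set, 7 of 189 values changed sign for the difference between the sexes, and 11 of 198 for males against females at L345. At L6S1 the number was 9 of 147 for the other members, and 0 of these values were called. Of 627 recomputed log2 fold changes in the set, 575 kept their sign and their side of the threshold, 50 changed sign, none of them called, and 2 became called. The 2 were those of Scn3a (-1.39) and Scn3b (-1.18) in males against females at L6S1 without male L6S1 A, so that the number of members called ran from 0 to 2 over the libraries left out and was 0 under the other alternatives and comparisons. In L6S1 against L345 averaged over the sexes, Scn2b (0.16) and Scn3b (0.24) turned positive without male L6S1 D and E, Scn1a (0.074) and Scn9a (0.13) with length offsets, Scn1a (0.014) without the 3 A libraries, and Scn10a (0.078), Scn11a (0.13), Scn2b (0.23) and Scn3b (0.27) with the replicate block. Leaving out 1 library gave -0.37 to 0.12 for Scn1a, -0.39 to 0.045 for Scn9a, -0.25 to 0.017 for Scn2b and -0.23 to 0.054 for Scn3b. In females, limma voom gave -0.076 for Scn3a, -0.080 for Scn9a and 0.0012 for Scn10a, length offsets gave -0.015 for Scn3a, -0.12 for Scn9a and -0.036 for Scn4b, and the block gave -0.073 for Scn3a, -0.083 for Scn9a and 0.00025 for Scn10a. Without the 3 A libraries, Scn3a was -0.49, Scn9a -0.28, Scn11a -0.18 and Scn4b -0.19. Leaving out 1 library gave -0.0046 to 0.62 for Scn1a, -0.74 to 0.51 for Scn3a, -0.32 to 0.029 for Scn8a, -0.50 to 0.32 for Scn9a, -0.38 to 0.14 for Scn10a, -0.21 to 0.30 for Scn11a, -0.012 to 0.29 for Scn2b and -0.15 to 0.13 for Scn4b. In males, Scn2b was 0.17 without D and E, Scn9a was 0.38 with length offsets, 0.047 without the 3 A libraries and -0.45 to 0.068 with 1 library left out. The cause of these changes was not tested.

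The replicate block called 90 genes averaged over the sexes and 7 in males against females at L345, against 69 and 5 without it, on 3 and 2 residual degrees of freedom, and it changed no call of the 9. Averaged over the sexes, the block used only the female pairs A, B and C and the male pair A, so its values differ from the main fit in libraries as well as in pairing. No paired analysis was possible for the male levels, for the difference between the sexes or for L6S1 between the sexes, because these groups share only the letter A. The number of all genes called moved far more than any member. For L6S1 against L345 averaged over the sexes DESeq2 called 187, no filter 144 and the fit without the 3 A libraries 23, in place of 69, and leaving out 1 library gave 28 to 129. In females DESeq2 called 47, no filter 34, the fit without D and E 23, length offsets 12, limma voom 11 and the fit without the 3 A libraries 1, in place of 3, and leaving out 1 library gave 0 to 11. In males the numbers were 965 by DESeq2, 264 with no filter, 19 without D and E, 16 by limma voom and 2 without the 3 A libraries, in place of 34, and 4 to 3133 with 1 library left out. For males against females at L6S1 they were 1281 by DESeq2, 197 with no filter, 6 without D and E and 6 without the 3 A libraries, in place of 13, and 9 to 3149 with 1 library left out. Among the single libraries left out, the highest of these numbers came without male L6S1 A, except in females, where it came without male L6S1 E. At L345 DESeq2 and no filter each called 8 in place of 5. Library totals alone moved the median of all genes in males against females at L6S1 to -0.11, in place of 0.03, and the 9 members stayed negative there. Depth did not limit the 9 genes, the lowest count being 125 reads.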
